A study of Homo sapiens with 12 samples.

Results

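The 10 genes described here carry the output end of the Hippo pathway: the co-activators YAP1 and WWTR1, the DNA-binding proteins TEAD1, TEAD2, TEAD3 and TEAD4, the secreted target gene products CCN1 and CCN2, and the feedback genes LATS2 and AMOTL2. They were chosen by gene symbol, and all 10 were found among the 60649 gene rows of the deposited count tables. RNA was sequenced from spheroids of SBC3, an established human small cell lung cancer cell line, in 12 libraries. By their treatment label, 3 were control, 3 had teriflunomide, 3 lurbinectedin and 3 teriflunomide and lurbinectedin, called the combination here. All 4 groups share the same line and culture form, and no genetic change is named in the labels. Doses, exposure times and the vehicle of the controls were not given in the sources used here. The labels do not say whether the 3 libraries of a group came from separate cultures, so p-values measure only the spread between these libraries, which may be technical.

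Teriflunomide inhibits DHODH, an enzyme of pyrimidine synthesis, and lurbinectedin binds DNA and blocks transcription by RNA polymerase II. The study's title concerns the joint action of teriflunomide or leflunomide with chemotherapeutics in small cell lung cancer. In the Hippo pathway, the kinases encoded by STK3 and STK4 activate the kinases encoded by LATS1 and LATS2, which phosphorylate YAP1 and the WWTR1 product TAZ and keep them out of the nucleus. Unphosphorylated YAP1 and TAZ enter the nucleus and bind TEAD proteins, which recognise short DNA motifs near target genes. CCN1, CCN2, LATS2 and AMOTL2 are among the targets most often used to read this output, and the last pair restrain YAP1 in turn. In small cell lung cancer, high YAP1 is known from lines that lack neuroendocrine features. RNA levels do not show where YAP1 is in the cell or how it is phosphorylated.

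The letters that TEAD proteins are known to recognise, GGAATG or its reverse complement CATTCC, were searched for on both strands of the RefSeq promoter windows (GRCh38.p14), each of 300 bases. Of 35116 windows, 4928 (14.0%) held at least 1 match, and 45 (0.128%) held 3 or more. Windows were found for 7 of the 10 genes, some of which had more than 1. Of these 10 windows 4 held a match: those of CCN2, YAP1 and LATS2 and the second of AMOTL2. TEAD1, TEAD4 and CCN1 had no window in that table. The 250 bases before the start site are shown for CCN2, which had 3 matches, and for YAP1 and AMOTL2, which had 1 each, because the RNA of these genes moved in opposite directions in the results below. The match in the LATS2 window lay after the start site and is not shown. Sequences are written 5′ to 3′ on the strand of the gene, with the matched letters in capitals.
CCN2, chr6:131951373-131951622, minus strand: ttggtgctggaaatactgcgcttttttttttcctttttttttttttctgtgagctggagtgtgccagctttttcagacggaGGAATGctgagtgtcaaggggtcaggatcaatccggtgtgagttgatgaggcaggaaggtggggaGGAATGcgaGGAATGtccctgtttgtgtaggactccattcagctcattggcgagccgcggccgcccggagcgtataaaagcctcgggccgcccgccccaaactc
YAP1, chr11:102110197-102110446, plus strand: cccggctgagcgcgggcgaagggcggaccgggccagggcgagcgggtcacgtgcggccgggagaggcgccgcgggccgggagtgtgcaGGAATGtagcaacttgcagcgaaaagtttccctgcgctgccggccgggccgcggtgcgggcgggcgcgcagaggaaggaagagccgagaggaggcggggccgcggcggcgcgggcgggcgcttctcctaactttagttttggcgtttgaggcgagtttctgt
AMOTL2, the second of its windows, chr3:134374448-134374697, minus strand: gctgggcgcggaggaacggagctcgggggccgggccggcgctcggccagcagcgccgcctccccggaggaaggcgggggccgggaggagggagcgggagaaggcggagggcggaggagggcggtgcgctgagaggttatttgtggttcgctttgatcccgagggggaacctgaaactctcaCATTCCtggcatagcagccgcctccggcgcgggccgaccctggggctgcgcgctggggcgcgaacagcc
The CCN2 matches began 169, 104 and 95 bases before the start site, the YAP1 match 162 bases and the AMOTL2 match 69 bases before it. A match is a description of the sequence and does not show that a TEAD protein bound there.

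Total counts ranged from 23206414 to 33222162 per library. The unit of the levels below is CPM, which relates each count to the TMM-scaled size of its library. Levels and fold changes are thus relative to the other RNA counted in a library and do not show RNA per cell. The filter on low counts was passed by 16683 genes, all 10 described here among them. The third teriflunomide library and the second combination library stood apart from their groups, with 22.6% and 24.9% of counts on mitochondrially encoded genes. The other teriflunomide libraries had 8.42% and 8.43%, the other combination libraries 14.6% and 13.1%, the controls 6.26% to 7.17% and the lurbinectedin libraries 13.8% to 17.0%. Among genes used to name small cell lung cancer subtypes, POU2F3 reached at most 0.341 CPM and NEUROD1 lay at 3.67 to 4.29 CPM in the controls. Among 5 neuroendocrine markers INSM1 had 0 counts in all 12 libraries, and the summed level of the 5 was 17.9 to 19.5 CPM in control and 32.3 to 34.7 CPM under lurbinectedin, most of it SYP. The summed level of 3 endothelial markers was at most 0.579 CPM in each library and that of 3 leukocyte markers at most 0.447 CPM. The summed level of 4 fibroblast markers was 520.2 to 549.96 CPM in control, 466 to 485 under teriflunomide, 187 to 221 under lurbinectedin and 198 to 227 under the combination. COL1A1 and COL1A2 made up nearly all of that sum, at means of 266 and 270 CPM in control. The other fibroblast markers were low there, COL3A1 at 1.07 CPM and PDGFRB at 0.0868 CPM, so the markers of this list did not go together. None of the 4 was at 0 in all libraries, and the part of that sum in the results below was not tested.

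YAP1, the main co-activator, fell about 3.79-fold under lurbinectedin and was the gene with the highest level per exon length of the 10 in control. It lies on chromosome 11 (102110447 to 102233424, plus strand, hg38). Its level was 243, 259 and 236 CPM in control, 280.2, 291 and 343 under teriflunomide, 60.2, 72.2 and 62.2 under lurbinectedin, and 128, 86.5 and 77.6 under the combination. All 6 libraries exposed to lurbinectedin lay below all others, and the 3 combination libraries lay above the 3 under lurbinectedin alone. With lurbinectedin against control the log2 fold change was -1.92 (SE 0.163, edgeR adjusted p = 1.28e-07), and under the combination it was -1.34 (SE 0.159, adjusted p = 4.76e-06). In bulk RNA, fewer cells that express a gene and less of its RNA per cell cannot be told apart. Per kilobase of exon, YAP1 in control was 39.0 ± 1.90 CPM (SD, n = 3), against 0.448 to 0.523 for NEUROD1 and 0.00998 to 0.0350 for POU2F3.

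WWTR1, which encodes the co-activator TAZ, fell with YAP1. The gene lies on chromosome 3 (149517235 to 149736714, minus strand). It stood at 56.6, 61.8 and 57.9 CPM in control, 67.1, 65.8 and 80.1 under teriflunomide, 11.5, 12.9 and 12.4 under lurbinectedin, and 24.1, 18.6 and 15.6 under the combination. As for YAP1, no library exposed to lurbinectedin reached the lowest of the others. Its log2 fold change was -2.25 (SE 0.152, edgeR adjusted p = 1.32e-08) under lurbinectedin and -1.60 (SE 0.147, adjusted p = 3.84e-07) under the combination. An antisense gene, WWTR1-AS1, shares 9.05% of the exon length of WWTR1 and had 104 counts over the 12 libraries, against 14818 for WWTR1. The fall was slightly larger for WWTR1 than for YAP1. Of their summed level per exon length, YAP1 made up 84.7% ± 0.357 in control, 85.0% ± 0.364 under teriflunomide, 87.4% ± 0.596 under lurbinectedin and 86.8% ± 0.744 under the combination (SD, n = 3). The share was 2.73 points higher under lurbinectedin than in control, with no overlap (exact permutation p = 0.1, the smallest that 3 against 3 libraries allow). That sum went from 46.0 ± 2.18 CPM per kilobase in control to 11.7 ± 1.09 under lurbinectedin and 17.7 ± 4.73 under the combination.

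**Figure D1:**
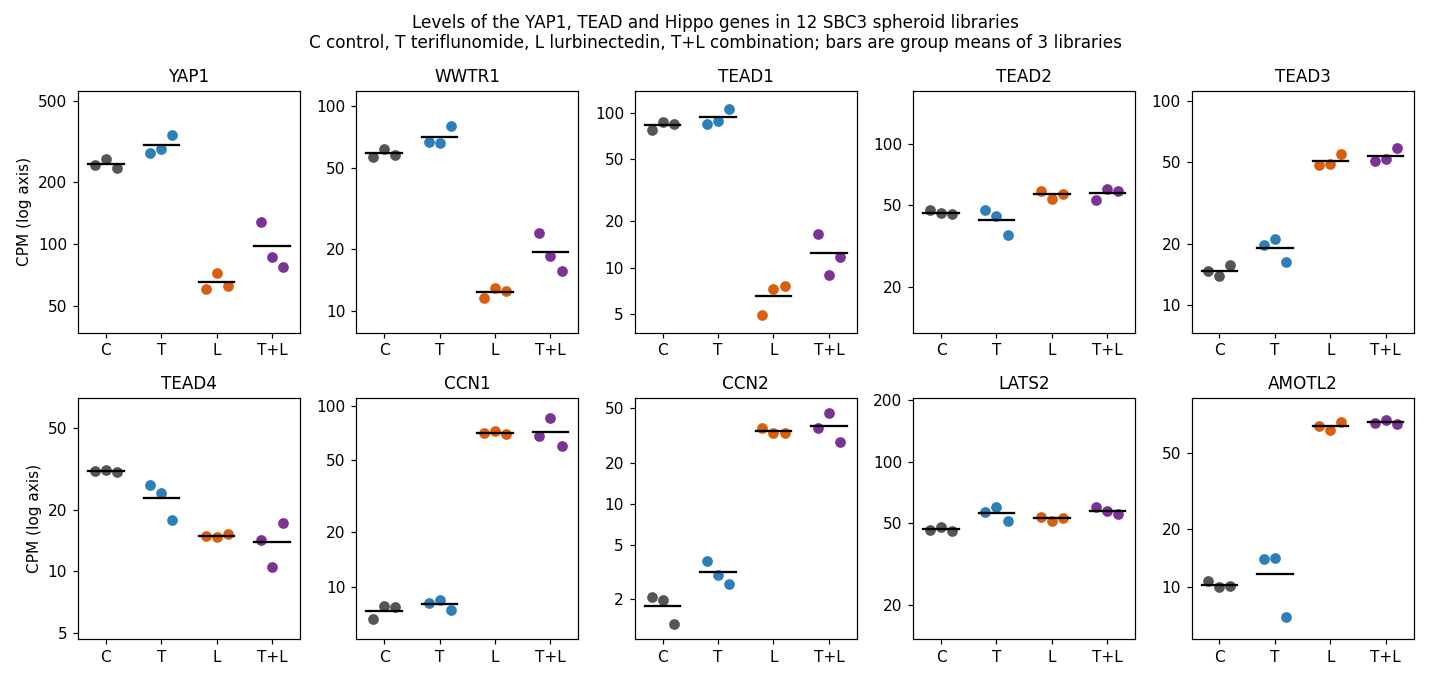
Level of each of the 10 genes in CPM (log axis, its range set for each panel) in each library, by group; points are libraries and bars the means of 3. YAP1, WWTR1, TEAD1 and TEAD4 are low, and TEAD3, CCN1, CCN2 and AMOTL2 high, in all 6 libraries exposed to lurbinectedin.

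The 4 TEAD genes, whose proteins bind DNA and recruit the co-activators, did not move together. TEAD1, on chromosome 11 (12674421 to 12944737, plus strand), fell the most of the 10 genes. It was at 77.0, 86.4 and 84.8 CPM in control, 84.8, 88.1 and 106 under teriflunomide, 4.94, 7.23 and 7.60 under lurbinectedin, and 16.5, 8.89 and 11.7 under the combination. The groups with and without lurbinectedin were far apart, and the combination libraries all lay above those under lurbinectedin alone. The log2 fold change of TEAD1 was -3.64 (SE 0.218, edgeR adjusted p = 4.22e-09) under lurbinectedin, a 12.5-fold fall, and -2.74 (SE 0.206, adjusted p = 4.96e-08) under the combination.

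TEAD4, on chromosome 12 (2959330 to 3040676, plus strand), also fell, by a smaller amount. Its level was 31.0, 31.2 and 30.6 CPM in control, 26.3, 24.1 and 17.8 under teriflunomide, 14.9, 14.6 and 15.1 under lurbinectedin, and 14.3, 10.5 and 17.1 under the combination. The lurbinectedin and combination libraries overlapped each other and lay below all others. TEAD4 changed by a log2 of -1.05 (SE 0.172, edgeR adjusted p = 8.21e-05) under lurbinectedin and -1.14 (SE 0.172, adjusted p = 4.40e-05) under the combination.

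TEAD3, on chromosome 6 (35473597 to 35497079, minus strand), rose where TEAD1 fell. It was at 14.8, 13.8 and 15.6 CPM in control, 19.7, 21.1 and 16.3 under teriflunomide, 48.2, 48.8 and 54.6 under lurbinectedin, and 50.7, 51.5 and 59.0 under the combination. No lurbinectedin or combination library came near the others. The change in TEAD3 was a log2 of 1.78 (SE 0.125, edgeR adjusted p = 1.86e-08) under lurbinectedin, a 3.43-fold rise, and 1.87 (SE 0.125, adjusted p = 1.52e-08) under the combination.

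TEAD2, on chromosome 19 (49340595 to 49362457, minus strand), changed least of the 4. Its level was 47.6, 45.7 and 45.2 CPM in control, 47.4, 44.2 and 35.9 under teriflunomide, 59.1, 54.0 and 56.9 under lurbinectedin, and 53.5, 60.2 and 58.9 under the combination. All lurbinectedin and combination libraries lay above all others, by a small distance. The log2 fold change was 0.30 (SE 0.113, edgeR adjusted p = 0.0305) under lurbinectedin and 0.32 (SE 0.113, adjusted p = 0.0227) under the combination. With library size as the only scaling these became 0.06 (adjusted p = 0.764) and 0.15 (adjusted p = 0.461), and the first call was lost on leaving out any 1 of the 6 libraries compared (adjusted p 0.0553 to 0.120). The call under the combination was lost on leaving out any control or the second or the third combination library (adjusted p 0.0509 to 0.0769). CD37, on the opposite strand, shares 10.7% of the exon length of TEAD2 and had 44 counts in all, against 17364.

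With TMM scaling, the summed level of the 4 TEAD genes stayed close to that of control while its makeup changed. Per kilobase of exon it was 41.6 ± 0.0206 CPM in control, 39.2 ± 3.58 under teriflunomide, 42.7 ± 1.55 under lurbinectedin and 44.2 ± 3.02 under the combination (SD, n = 3). These values rest on the scaling and are relative to the other RNA of each library, so they do not show RNA per cell. The TMM factors were 1.07 to 1.11 in control and 0.890 to 0.955 under lurbinectedin. With library size as the only scaling, the lurbinectedin sums would all lie below the control sums. The share of each gene in the sum of its library does not depend on the scaling. TEAD1 made up 18.6% ± 1.12 of that sum in control and 1.44% ± 0.310 under lurbinectedin, and TEAD3 went from 11.6% ± 0.701 to 38.8% ± 1.67. TEAD4 went from 32.6% ± 0.329 to 15.3% ± 0.297 and TEAD2 from 37.2% ± 1.03 to 44.5% ± 1.82. With the combination the shares were 2.63% ± 0.893 for TEAD1, 39.8% ± 0.657 for TEAD3, 13.8% ± 2.61 for TEAD4 and 43.7% ± 3.27 for TEAD2. For each of the 4 genes the lurbinectedin and control shares did not overlap, and the exact two-sided permutation p was 0.1, the smallest that 3 against 3 libraries allow (0.139 after adjustment over the 25 comparisons of shares). The TEAD1 share was also higher under the combination than under lurbinectedin alone in all 3 libraries, by 1.19 points (exact permutation p = 0.1).

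**Figure D2:**
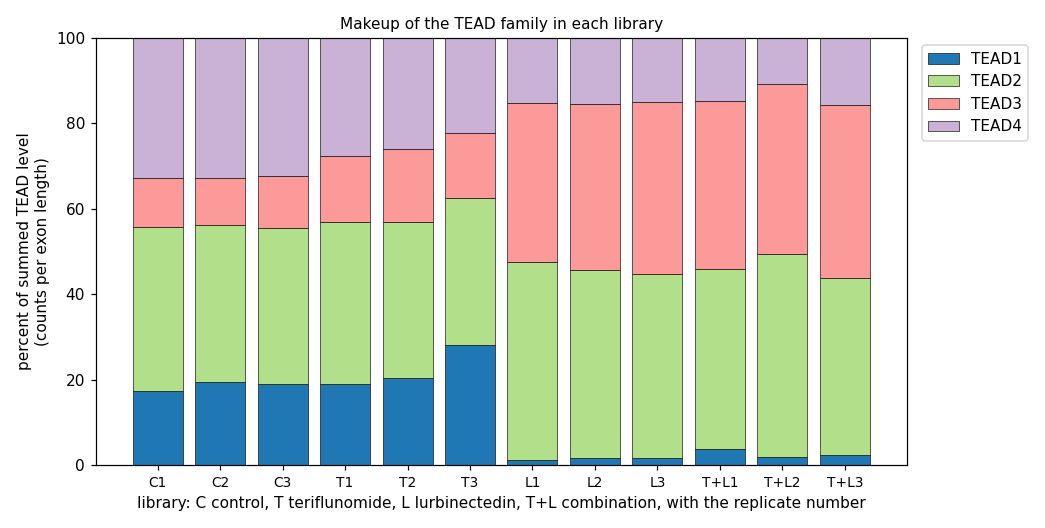
Share of each TEAD gene in the summed TEAD level of each library, in percent of counts per exon length; each bar is 1 library and bars start at 0. TEAD1 and TEAD4 take less, and TEAD3 more, of the sum in the 6 libraries exposed to lurbinectedin.

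CCN1 and CCN2, which encode secreted matricellular proteins that act on adhesion and growth, rose the most of the 10 genes under lurbinectedin, while YAP1, WWTR1 and TEAD1 fell. CCN1 lies on chromosome 1 (85580761 to 85584589, plus strand). It was at 6.67, 7.82 and 7.71 CPM in control, 8.12, 8.50 and 7.50 under teriflunomide, 70.7, 72.5 and 69.7 under lurbinectedin, and 68.3, 85.2 and 60.0 under the combination. The lurbinectedin libraries spanned a narrow range, and the combination libraries lay on both sides of it. The log2 fold change was 3.26 (SE 0.142, edgeR adjusted p = 2.72e-10) under lurbinectedin, a 9.58-fold rise, and 3.26 (SE 0.142, adjusted p = 3.27e-10) under the combination.

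CCN2, on chromosome 6 (131948176 to 131951372, minus strand), was the lowest of the 10 per exon length in control and rose furthest. It was at 2.08, 1.97 and 1.31 CPM in control, 3.81, 2.99 and 2.59 under teriflunomide, 36.0, 32.8 and 33.2 under lurbinectedin, and 36.1, 46.0 and 28.4 under the combination. The control values rest on 44 to 62 counts per library. On the log2 scale CCN2 changed by 4.25 (SE 0.224, edgeR adjusted p = 1.27e-09) under lurbinectedin, a 19.1-fold rise, and 4.37 (SE 0.224, adjusted p = 1.31e-09) under the combination. An overlapping gene on the other strand shares 8.34% of its exon length and had 16 counts in all, against 5946 for CCN2.

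AMOTL2, an angiomotin family member that binds YAP1 and holds it at junctions and in the cytoplasm, rose with CCN1 and CCN2. The gene lies on chromosome 3 (134355347 to 134375479, minus strand). It stood at 10.8, 10.03 and 10.1 CPM in control, 14.0, 14.1 and 6.95 under teriflunomide, 69.0, 65.2 and 72.6 under lurbinectedin, and 71.6, 74.3 and 70.1 under the combination. The third teriflunomide library was lower than every control, and the other teriflunomide libraries were higher than every control. With lurbinectedin the log2 fold change was 2.74 (SE 0.205, edgeR adjusted p = 3.69e-08), a 6.69-fold rise, and under the combination 2.80 (SE 0.206, adjusted p = 3.84e-08).

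LATS2, the kinase that phosphorylates YAP1 and TAZ, stayed within a narrow range in all groups. It lies on chromosome 13 (20973036 to 21061586, minus strand). Its level was 46.5, 48.2 and 46.1 CPM in control, 57.1, 60.4 and 51.0 under teriflunomide, 53.9, 51.6 and 53.3 under lurbinectedin, and 59.95, 57.4 and 55.8 under the combination. Every treated library lay above every control. The log2 fold change was 0.17 under lurbinectedin (SE 0.0964, edgeR adjusted p = 0.120), which was not called, and 0.30 under the combination (SE 0.0962, adjusted p = 0.0134), which was. The call under the combination was lost without the first or the third control (adjusted p = 0.0535 and 0.0558), and LATS2 was called under lurbinectedin with a filter at 1 CPM (adjusted p = 0.0479) or with only those groups in the fit (adjusted p = 0.0225). With library size as the only scaling the first became -0.06 (adjusted p = 0.741) and the second 0.13 (adjusted p = 0.467), so the direction of LATS2 under lurbinectedin rests on the scaling. That scaling put the median of all genes tested at -0.18 for lurbinectedin and -0.13 for the combination, against 0.05 and 0.04 with TMM. Relative to those medians LATS2 was higher under both scalings.

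Counted together, 9 of the 10 genes were called under lurbinectedin against control, 5 higher and 4 lower, where 71.6% of all genes tested were called (36.0% higher and 35.7% lower). With library size as the only scaling, 39.2% of the genes called were higher, against 50.2% with TMM. With the combination against control all 10 were called, 6 higher and 4 lower, against 68.4% of all genes (34.1% and 34.4%). The combination against teriflunomide gave 5 higher and 4 lower, against 70.9% of all genes (35.2% and 35.8%), with LATS2 not called (log2 fold change 0.04, SE 0.0960, adjusted p = 0.730). So many genes passed the test in these comparisons that a count of calls says little about the 10, and the sizes of the changes say more. The median log2 fold change of the 10 was 0.23 under lurbinectedin and 0.31 under the combination, beside 0.05 and 0.04 for all genes tested, while single genes ran from -3.64 to 4.25 under lurbinectedin. These comparisons share their control or combination libraries and are not independent of each other.

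**Figure D3:**
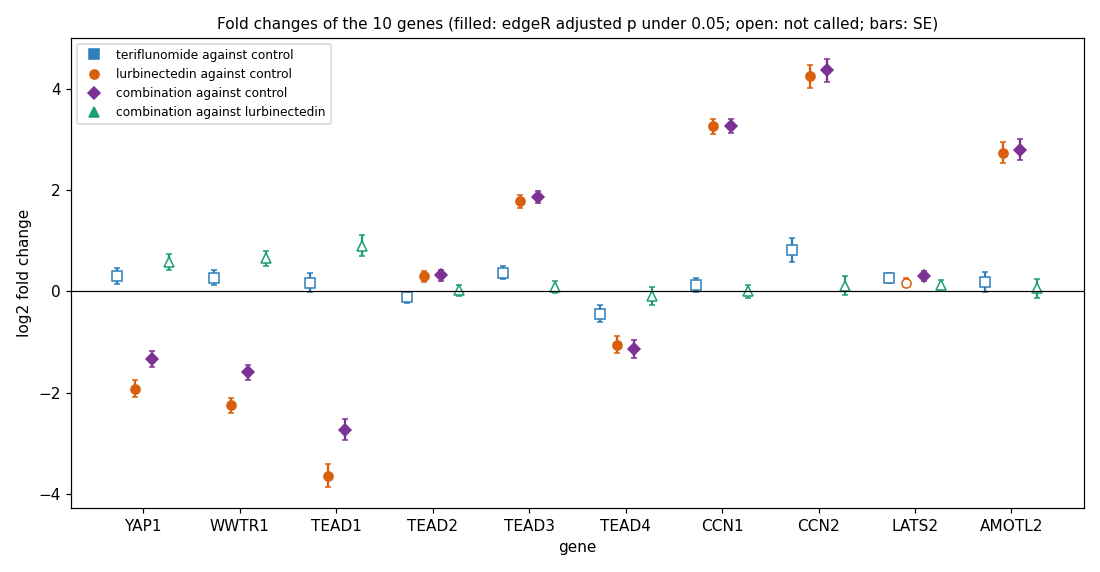
Log2 fold change of each of the 10 genes in the comparisons named in the panel, with its SE from the edgeR fit; filled marks passed an adjusted p of 0.05. TEAD1 lies lowest at -3.64 and CCN2 highest at 4.25 under lurbinectedin against control.

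The order of the levels per exon length turned over between control and lurbinectedin. In control it ran from YAP1 (39.0 CPM per kilobase) through TEAD2 (15.5), TEAD4 (13.6), LATS2 (8.36), TEAD1 (7.73), WWTR1 (7.04), TEAD3 (4.83), CCN1 (2.001) and AMOTL2 (1.59) to CCN2 (0.765). Among neighbours in that order only TEAD1 and WWTR1 overlapped between libraries. With lurbinectedin it ran from CCN1 (19.2) through TEAD2 (19.0), TEAD3 (16.6), CCN2 (14.5), AMOTL2 (10.6), YAP1 (10.3), LATS2 (9.43), TEAD4 (6.54) and WWTR1 (1.47) to TEAD1 (0.616). There CCN1 overlapped TEAD2, AMOTL2 overlapped YAP1, and YAP1 overlapped LATS2. With teriflunomide the first member of the order was again YAP1 (48.3) and the last CCN2 (1.34). With the combination TEAD2 (19.3), CCN1 (19.2), TEAD3 (17.6), CCN2 (15.8) and YAP1 (15.4) came first, each overlapping its neighbours among these 5, and TEAD1 (1.16) was again last.

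Teriflunomide alone moved none of the 10 past the threshold in the edgeR test, where 6.01% of all genes tested were called (3.88% higher and 2.13% lower). At an unadjusted p under 0.05 there were 4, beside 24.8% of all genes, and DESeq2 called 3 (TEAD3, CCN2 and LATS2), beside 11.4% of all genes. CCN2 came closest, at 0.82 on the log2 scale (SE 0.229, adjusted p = 0.0514) and all 3 teriflunomide libraries above all controls. The other 3 were TEAD3 at 0.37 (SE 0.123, adjusted p = 0.0905), TEAD4 at -0.44 (SE 0.168, adjusted p = 0.128) and LATS2 at 0.26 (SE 0.0961, adjusted p = 0.120), each with groups that did not overlap. YAP1 was at 0.31 (SE 0.156, adjusted p = 0.238) and WWTR1 at 0.27 (SE 0.142, adjusted p = 0.251), also with every teriflunomide library above every control. TEAD1, TEAD2, CCN1 and AMOTL2 had overlapping groups and log2 fold changes of 0.17, -0.12, 0.12 and 0.19.

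The third teriflunomide library, with its high mitochondrial share, decided several of these values. It had the highest YAP1, WWTR1 and TEAD1 of all 12 libraries, and the lowest TEAD2, TEAD4 and AMOTL2 of the 6 libraries without lurbinectedin. Without it, edgeR called 9.11% of all genes (5.51% higher) and 4 of the 10 genes, all higher with teriflunomide: TEAD3 at 0.47 (adjusted p = 0.0102), CCN2 at 0.94 (adjusted p = 0.0237), LATS2 at 0.32 (adjusted p = 0.0204) and AMOTL2 at 0.45 (adjusted p = 0.00727). YAP1 was then at 0.21 (adjusted p = 0.434), WWTR1 at 0.17 (adjusted p = 0.437) and TEAD4 at -0.29 (adjusted p = 0.200). CCN2 alone was called on leaving out the second or the third combination library, where 6.74% and 6.67% of all genes were called. Those libraries are in neither group compared, but they enter the filter, the scaling and the estimate of the spread.

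Teriflunomide added to lurbinectedin left YAP1, WWTR1 and TEAD1 at higher levels than lurbinectedin alone in every library, but no difference passed the threshold. In edgeR 0 of the 10 genes and 0% of all genes were called, the smallest adjusted p over all genes being 0.145, while 3 of the 10 and 2599 genes (15.6%) had an unadjusted p under 0.05. The log2 differences were 0.58 for YAP1 (SE 0.158, adjusted p = 0.151), 0.66 for WWTR1 (SE 0.1496, adjusted p = 0.151) and 0.90 for TEAD1 (SE 0.209, adjusted p = 0.151). DESeq2 called these 3 genes (adjusted p = 0.0246, 0.00556 and 0.00557), and so did edgeR without the third teriflunomide library (adjusted p = 0.0181, 0.00550 and 0.00990). That library is in neither group compared, but it enters the filter, the scaling and the estimate of the spread. Without it 17072 genes were tested. Of all genes DESeq2 called 3.50% and that edgeR fit 12.1%. Without the second combination library only TEAD1 was called (1.09, adjusted p = 0.0388), beside 1.52% of all genes. The first combination library held the highest value of all 3 genes in its group, and without it the differences were 0.35, 0.48 and 0.65 (adjusted p = 0.609, 0.596 and 0.596). LATS2 also had groups that did not overlap, at 0.12 (SE 0.0963, adjusted p = 0.555). The other 6 genes overlapped and had log2 differences between -0.09 and 0.11.

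The interaction compares the effect of teriflunomide with lurbinectedin present and absent. None of the 10 genes was called in edgeR, where 0.258% of all genes were (0.0360% higher and 0.222% lower), and none by DESeq2, while 2 had an unadjusted p under 0.05. These were TEAD1, at 0.73 (SE 0.282, adjusted p = 0.382), and CCN2, at -0.70 (SE 0.293, adjusted p = 0.424). For YAP1 the value was 0.28 (SE 0.222, adjusted p = 0.738), so a larger effect of teriflunomide on YAP1 beside lurbinectedin than without it was not shown.

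The log2 fold changes of the 10 genes under lurbinectedin were mostly ordered by genomic span, the distance from first to last exon. TEAD1 spans 270 kb, WWTR1 219 kb, YAP1 123 kb, LATS2 88.6 kb and TEAD4 81.3 kb. TEAD3 spans 23.5 kb, TEAD2 21.9 kb, AMOTL2 20.1 kb, CCN1 3.83 kb and CCN2 3.20 kb. The genes that fell are the longest but for LATS2, which is longer than TEAD4 and did not fall. Across the 10 genes Spearman's rho of span with log2 fold change was -0.976 under lurbinectedin, -0.976 under the combination and -0.04 with teriflunomide. Across all 16651 nuclear genes tested it was -0.57, -0.55 and 0.22. The values of a comparison come from the same libraries and genes are not independent replicates, so these are descriptions.

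Set among genes of the same span bin, the co-activators fell about as far as the typical gene. CCN1, CCN2, AMOTL2 and TEAD3 rose more than most genes of their bins. All nuclear genes were put in 5 bins of nearly equal number by span. In the bin of the longest genes (82.9 to 2305 kb, median 146 kb) the median log2 fold change under lurbinectedin was -1.86 and 83.7% of genes were called lower. YAP1 lay at the 48.2 percentile of that bin, WWTR1 at 40.9, TEAD1 at 17.4 and LATS2 at 91.7. That bin is wide, and WWTR1 and TEAD1 span more than its median gene. TEAD4 lay at the 22.8 percentile of the next bin (35.9 to 82.9 kb), whose median was -0.36. LATS2 and TEAD4 lie close to the edge between these bins, on either side of it, so their percentiles depend on where that edge was put. In the middle bin (median log2 fold change 0.28) TEAD2 lay at the 51.1 percentile, TEAD3 at 94.0 and AMOTL2 at 97.7. In the bin of the shortest genes (median 0.69) CCN1 lay at the 94.4 and CCN2 at the 97.1 percentile. Under the combination against control the median of the bin of the longest genes was -1.56, less negative than under lurbinectedin alone. There YAP1 lay at the 56.4 percentile, WWTR1 at 49.0 and TEAD1 at 23.6. Each of these percentiles was higher than under lurbinectedin alone. A link between the shift of that bin and the higher levels of these genes was not tested.

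**Figure D4:**
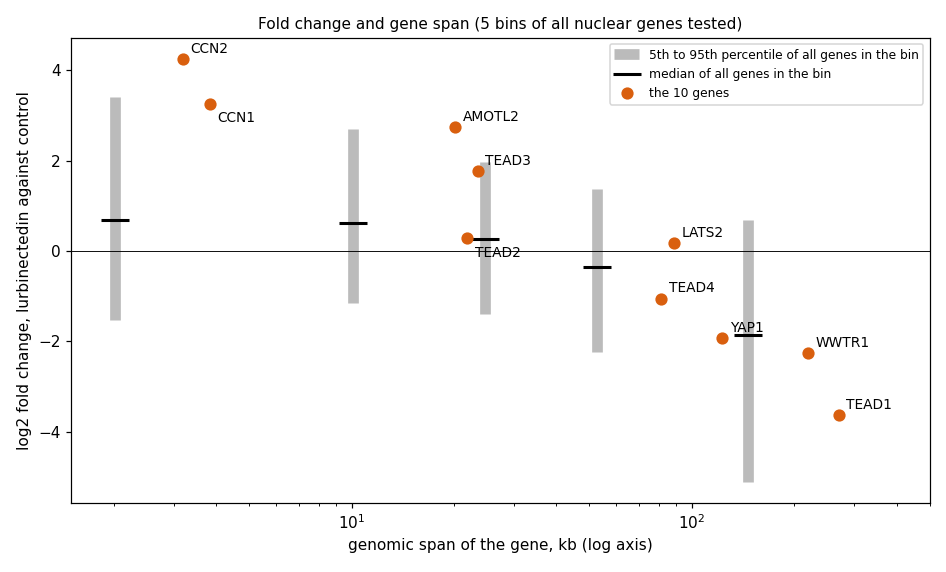
Log2 fold change under lurbinectedin against control and genomic span in kb (log axis) for the 10 genes, over all nuclear genes tested in 5 bins of equal number; grey bars run from the 5th to the 95th percentile of a bin and black lines mark its median. YAP1 and TEAD2 lie near the median of their bins, and CCN2 and AMOTL2 lie above the grey bars.

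Genes with a pattern like that of YAP1 or CCN2 were ranked by Pearson's r of log2 CPM over the 12 libraries. The libraries fall into a set with and a set without lurbinectedin, so a high r mostly reflects that step, and no p is given. Nearest to YAP1 were NEDD4 (r = 0.998), ERCC6L2 (0.998) and ZYG11B (0.998), and 195 of 16655 genes were above 0.99. Nearest to CCN2 were SGK1 (r = 0.997) and FOS (0.996), and 51 genes were above 0.99.

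The rest of the Hippo pathway mostly fell under lurbinectedin. Of 32 kinases, adaptors, upstream regulators and cofactors on a fixed list, 27 were tested, and 18 fell and 5 rose under lurbinectedin against control, with a median log2 fold change of -1.28 beside 0.05 for all genes tested. Of all genes tested 71.6% were called, 35.7% lower and 36.0% higher. STK3, the kinase upstream of LATS1 and LATS2, went from 18.7 ± 1.19 CPM in control to 0.976 ± 0.00626 (SD, n = 3), or -4.26 on the log2 scale (SE 0.227, adjusted p = 1.44e-09 in edgeR). The others with the largest falls were WWC1 (-4.96), which encodes the scaffold KIBRA, the kinase gene TAOK3 (-4.74) and the WWC1 relative WWC2 (-4.23). The largest rises were those of RASSF1 (2.40), which encodes a binding partner of the STK3 kinase, the polarity gene SCRIB (1.31), the kinase gene TAOK2 (1.06) and AJUBA (0.89), a LIM protein that restrains LATS kinases. LATS1, the other LATS kinase, was at 51.5 ± 1.06 CPM in control and 50.1 ± 2.08 under lurbinectedin (log2 fold change -0.04, SE 0.143, adjusted p = 0.821). The 18 that fell spanned 66.3 kb to 572 kb (median 179 kb), and the 5 that rose 11.2 kb to 36.2 kb (median 18.4 kb). In the span bin of 82.9 to 2305 kb, 83.7% of all genes were called lower and 5.83% higher. In that of 35.9 to 82.9 kb, 49.1% were called lower and 21.2% higher. Being called lower was thus common among genes of like span, which says nothing about the size of a fall. WWC1, TAOK3, STK3 and WWC2 each fell further than the bin of the longest genes did at its median (-1.86, with a 5th percentile of -5.11). Whether genes of this list fell further than others of like span was not tested.

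With the combination against control, 18 of the 27 again fell and 5 rose, with a median of -1.09, where 34.4% of all genes fell and 34.1% rose and their median was 0.04. The largest falls were those of WWC1 (-4.13), TAOK3 (-3.79), STK3 (-3.69) and WWC2 (-3.31). The largest rises were those of RASSF1 (1.97), TAOK2 (1.06), SAV1 (0.997), which encodes the adaptor of the STK3 and STK4 kinases, and SCRIB (0.98). For teriflunomide alone edgeR called 0 of the 27 (6.01% of all genes). At an unadjusted p under 0.05 there were 5 (24.8% of all genes), and DESeq2 called 2 (11.4% of all genes). The combination against lurbinectedin also gave 0 of 27 in edgeR (0% of all genes), with 11 at an unadjusted p under 0.05 (15.6%). DESeq2 called 5 of the 27 (3.50% of all genes), and edgeR without the third teriflunomide library 10 (12.1% of all genes).

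Other genes commonly used as YAP1 and TEAD targets moved both ways. Of 26 on a fixed list that leaves out the 10 genes above, 19 were tested. With lurbinectedin 10 fell and 6 rose, with a median log2 fold change of -0.80, where 35.7% of all genes fell and 36.0% rose with a median of 0.05. Under the combination 10 fell and 7 rose, with a median of -0.71, where 34.4% of all genes fell and 34.1% rose with a median of 0.04. GADD45A, a stress gene that is also a p53 target, rose furthest, from 8.42 ± 1.09 CPM in control to 280.4 ± 19.3 under lurbinectedin (5.06, SE 0.217, edgeR adjusted p = 2.51e-10) and 265 ± 76.5 under the combination (4.98, SE 0.216, adjusted p = 3.27e-10). The receptor tyrosine kinase gene AXL (1.72), FJX1 (1.31) and F3 (0.92), which encodes tissue factor, also rose under lurbinectedin. Mean levels in control and under lurbinectedin were 13.3 and 43.8 CPM for AXL and 4.22 and 10.5 for FJX1. F3 was low in both groups, at 0.962 and 1.83 CPM. MYOF, a membrane repair gene, went from 26.5 ± 1.97 to 0.897 ± 0.170 CPM (-4.89, SE 0.192, adjusted p = 1.26e-10), beside RBMS3 (-5.55), DOCK5 (-4.95) and ASAP1 (-4.84). The 10 that fell spanned 46.2 kb to 1436 kb (median 186 kb) and the 6 that rose 2.41 kb to 42.5 kb (median 12.02 kb). Those that fell lie in the span bins where 83.7% and 49.1% of all genes were called lower.

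With the combination, AXL (1.74), F3 (1.53) and the kinase gene NUAK2 (0.88) followed GADD45A among the rises. F3 was again low, at a mean of 2.78 CPM. MYOF (-5.90), RBMS3 (-4.44), DOCK5 (-4.12) and ASAP1 (-4.05) fell furthest. Under teriflunomide alone edgeR called 1 of the 19 (6.01% of all genes), which was GADD45A. DESeq2 called 4 (11.4% of all genes) and edgeR without the third teriflunomide library 3 (9.11% of all genes). GADD45A was at 21.5 ± 4.18 CPM (1.35, SE 0.195, edgeR adjusted p = 0.00191), higher in 3 of 3 libraries. The combination against lurbinectedin gave 0 of 19 in edgeR (0% of all genes), with 7 at an unadjusted p under 0.05 (15.6%). DESeq2 called 3 of the 19 (3.50% of all genes), and edgeR without the third teriflunomide library 5 (12.1% of all genes).

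**Figure D5:**
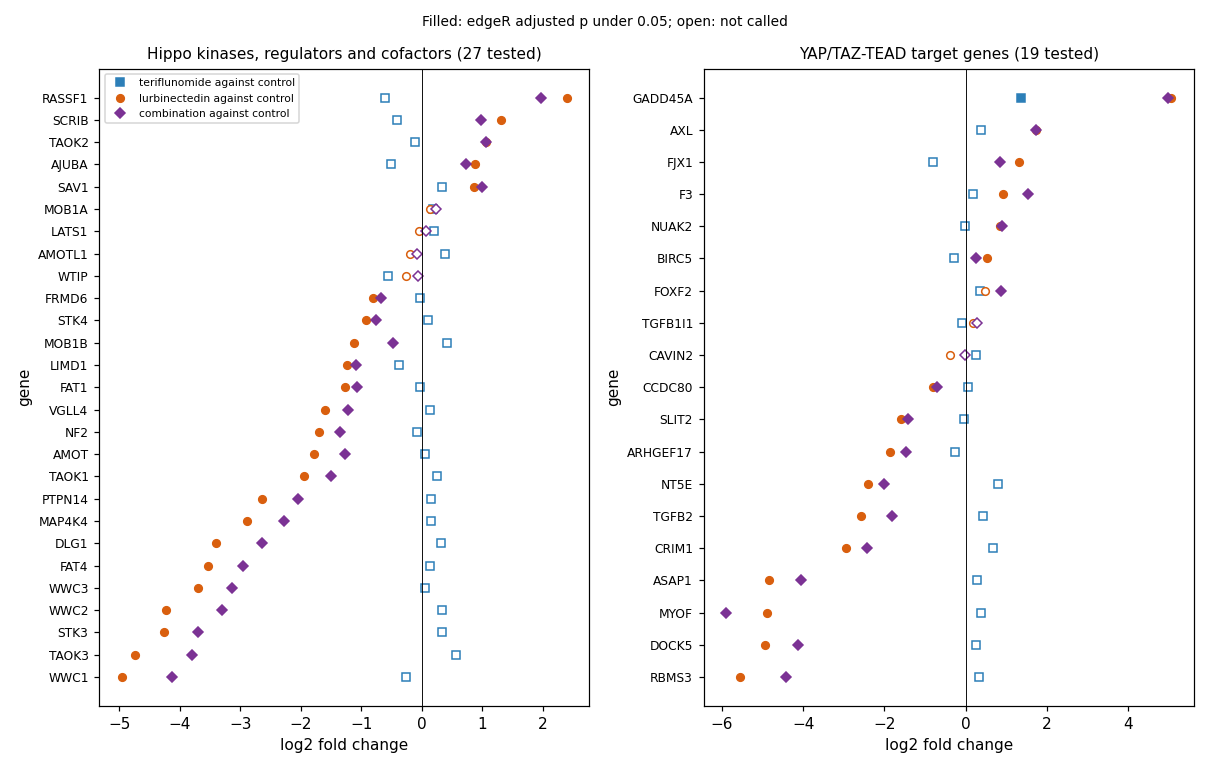
Log2 fold change against control of the 27 Hippo pathway genes (left) and the 19 target genes (right) tested, for teriflunomide, lurbinectedin and the combination; filled marks passed an edgeR adjusted p of 0.05. WWC1 and RBMS3 lie lowest and GADD45A highest under lurbinectedin.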

How the data were processed

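Values are raw read counts per gene, 1 deposited table for each of 12 libraries. Per the submitters' processing notes, fastp 0.23.2, STAR 2.7.9, Subread featureCounts and hg38 were used. The labels name the KAPA mRNA HyperPrep kit. The annotation release, strand setting and treatment of multi-mapping reads are not given in the sources used here, so overlapping genes may share counts. Of 60649 identifiers 60507 (99.8%) matched a symbol.

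Counts were tested with edgeR 4.0.16 (R 4.3.3): filterByExpr (16683 genes), TMM, and a robust quasi-likelihood fit to all 12 libraries with 1 mean per group. The biological coefficient of variation was 14.5%. The threshold in each of 6 comparisons was 0.05 for the p adjusted over all genes (Benjamini-Hochberg). SEs derive from the F statistic. Shares of TEAD levels were compared by exact permutation. Log2 CPM used a prior count of 2. On simulated counts for teriflunomide against control (16683 genes), 85% of 100 genes changed by a log2 of 1 and 92% of 100 changed by 2 were recovered. Recovery in the deposited counts, where the third teriflunomide library stood apart from its group, was not tested.

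The 10 genes and both lists were chosen with earlier results of these data known. All 10 are named, and from each list at most 4 called genes per direction with the largest change and at least 1 CPM; LATS1 was added after its values were seen. Alternatives were DESeq2 (1.42.0) or its size factors, library size only, other filters, the replicate number as a block, fewer groups, an adjusted p under 0.01, and leaving out each library. The values of 2 genes that met these rules are not reported here.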

Additional observations from a re-analysis of the deposited data

Results flagged for a closer look

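GADD45A, on the list of YAP1 and TEAD targets, had a different response to teriflunomide with and without lurbinectedin by the interaction term (-1.43 on the log2 scale, edgeR adjusted p = 0.0444). Teriflunomide raised it from 8.42 to 21.5 CPM without lurbinectedin, in 3 of 3 libraries, while with lurbinectedin the groups overlapped at 280.4 and 265 CPM. Over the 12 refits that each left out 1 library the value ran from -1.67 to -1.25, and the call was lost on leaving out any control or lurbinectedin library, the second teriflunomide library, the first combination library or the third (adjusted p 0.0666 to 0.170). It was also lost with the filter at 1 CPM (adjusted p = 0.0514), with the replicate number as a block (adjusted p = 0.110) and at a threshold of 0.01, so in 12 of 19 alternatives in all. It was kept with DESeq2 (adjusted p = 0.000294), DESeq2 size factors, library size only, no filter, and without the first or the third teriflunomide library or the second combination library.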

How the results depend on the processing

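YAP1, WWTR1, TEAD1, TEAD3, TEAD4, CCN1, CCN2 and AMOTL2 kept their direction and their calls in all 20 alternatives for lurbinectedin, and for the combination, against control. The number of the 10 genes called for teriflunomide against control was 0 in the fit used (6.01% of all genes). It was 1 with no filter (5.06%) and 3 with DESeq2 (11.4%). On leaving out single libraries it ran from 0 to 4, and the share of all genes from 1.26% to 9.11%. For the combination against lurbinectedin the number was 0 in the fit used (0% of all genes). It was 3 with no filter (1.72%) and 3 with DESeq2 (3.50%). On leaving out single libraries it ran from 0 to 3, and the share of all genes from 0% to 12.1%. The cause was not tested. Small differences changed sign. With library size as the only scaling these were LATS2 under lurbinectedin (-0.0603) and in the combination against teriflunomide (-0.0582), TEAD4 in the combination against lurbinectedin (0.00388), and CCN1 (0.00160) and LATS2 (0.00207) in the interaction. On leaving out single libraries, LATS2 in the combination against teriflunomide ran from -0.0327 to 0.0829. In the combination against lurbinectedin TEAD2 ran from -0.00944 to 0.0793, TEAD4 from -0.263 to 0.0802, CCN1 from -0.143 to 0.112 and CCN2 from -0.0740 to 0.271, and in the interaction AMOTL2 ran from -0.379 to 0.0286. Deviations of same-numbered libraries from their group means correlated between -0.40 and 0.14, with 1 of 18 pairs over 0.1. Differently numbered libraries were not compared in this way, so whether the replicate numbers pair the libraries was not settled. With the replicate number as a block, 0 of the 10 genes were called for teriflunomide against control (2.49% of all genes). For lurbinectedin against control 9 were called (69.5%), and for the combination against control 10 (66.2%). The combination against teriflunomide gave 9 (68.8%), and the combination against lurbinectedin (0%) and the interaction (0.0480%) gave 0. These numbers of the 10 were the same without the block. CCN1 in the combination against lurbinectedin became -0.00678 with the block. Over all genes, counts of calls ran from 216 to 1907 for teriflunomide against control (1002 in the fit used), from 0 to 2067 for the combination against lurbinectedin and from 2 to 616 for the interaction (43).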
